A study of Mus musculus with 6 samples.

Results

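The machinery that starts and carries out DNA replication was examined at the RNA level in Neuro2a cells, a mouse neuroblastoma line, with and without D-serine, the mirror-image form of L-serine. The 56 genes, of 24391 in the deposited table, were the numbered origin recognition (Orc), minichromosome maintenance (Mcm), GINS, replicative polymerase, primase, replication factor C and replication protein A subunits, chosen by symbol, together with 18 named licensing, clamp, ligase, topoisomerase, fork protection, histone deposition and E2F genes. Pole, the catalytic subunit of polymerase epsilon, carries no number and is not among them.

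The control group comprised 3 libraries of cells given vehicle, and the D-serine group 3 libraries of cells given 5 mM D-serine. All cells were moved from D-MEM with serum into a medium that the labels write as D-MEM(-SG), also with serum, and were harvested after 18 h. A single established line was used, and the labels do not say whether the replicates were separate cultures, so the p-values measure the spread between these libraries, which may be technical. Poly(A) RNA was counted per gene, and levels are given as CPM, counts relative to library size after TMM scaling, which brings libraries to a common scale.

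Replication is prepared in G1, when the origin recognition complex, with Cdc6 and Cdt1, loads the Mcm2 to Mcm7 ring on DNA. In S phase the kinase Cdc7 with its partner Dbf4, and the factors Cdc45 and GINS, turn that ring into the active helicase. Polymerase alpha and primase start each strand, the clamp Pcna, loaded by replication factor C, tethers polymerases delta and epsilon, and Fen1 and Lig1 join the lagging strand. The transcription factors E2F1 to E2F3 activate many of these genes as cells enter S phase, which makes the set a common readout of proliferation in tumour lines such as neuroblastoma.

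The libraries held between 32518483 and 40024265 counts. D-serine replicate 1 stood apart from the other libraries in how counts depended on gene length, with a slope of log2 CPM on log2 exonic length, relative to the mean of all libraries, of -0.072, against a range of -0.0040 to 0.036 in the other 5. Of the sympathoadrenal markers, all 12 were in the table and 11 passed the filter on low counts, with a summed level of 1251 to 1289 CPM in control and 1258 to 1312 CPM in D-serine libraries. The summed level of 7 fibroblast markers was at most 6.90 CPM, that of 6 glial markers at most 16.2 CPM, that of 6 leukocyte markers at most 2.17 CPM, that of 5 epithelial markers at most 1.31 CPM and that of 4 endothelial markers at most 4.71 CPM. The summed level of 8 neuronal markers was 957 to 1003 CPM in control and 1058 to 1121 CPM in D-serine libraries, and of the 6 tested Tubb3, a neuronal tubulin, was called higher (log2 fold change 0.25, edgeR adjusted p = 0.0148). The part of this difference in the results below was not tested.

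All 56 replication genes passed the filter on low counts and were tested, at control levels from 2.11 CPM (Pold4) to 1168 CPM (Top2a). With D-serine, 8 were lower and 3 were higher at an adjusted p under 0.05 in edgeR's quasi-likelihood test. Together they were 19.6% of the 56, where 9.74% of all 13366 tested genes were called. The lower genes were Pola1, Prim2, E2f2, E2f3, Pcna, Rpa1, Mcm4 and Mcm2, and the higher genes were Rpa3, Rfc4 and Timeless. The 8 lower genes were 14.3% of the 56, where 4.90% of all tested genes were called lower. Under upper quartile scaling 3 of the 56 (5.36%) and 3.08% of all tested genes were called lower, and with library totals 4 (7.14%) and 3.08%. The 3 higher genes were 5.36%, where 4.84% of all tested genes were called higher. Differences were small, with absolute log2 fold changes of 0.14 to 0.30 among the 11 called genes, and ran from Mcm2, which fell by 9.02%, to Rpa3, which rose by 23.0%. The remaining 45 genes were not past the threshold. At an unadjusted p under 0.05 in the same test were 19 of the 56 and 3769 of all 13366 tested genes. That count over all genes was not taken in the other fits.

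Counted by overlap, 20 of the 56 genes lay lower in every D-serine library than in any control library and 7 lay higher, 48.2% in all. Of all tested genes 32.9% were without overlap, 16.6% lower and 16.2% higher. The median log2 fold change of the 56 genes was -0.018, where that of all tested genes was 0.0053, and 33 fitted values were negative and 23 positive. Scaling moved this median through 0, to 0.011 under upper quartile scaling or with library totals, settings that raised the median of all genes by 0.030 and 0.029. The 56 genes together took up 1.06%, 1.05% and 1.06% of all counts across control replicates 1 to 3 and 1.04%, 1.03% and 1.03% across D-serine replicates 1 to 3. These shares were without overlap (two-sided exact permutation test, p = 0.1, which is the lowest value that 3 against 3 can give). A share of all counts amounts to scaling by library totals, under which the median above was 0.011. As a sum it is weighted to abundant genes, such as Top2a (1168 CPM in control), Mcm2 (716) and Mcm3 (606). A lower share therefore does not mean that the 56 genes fell as a set. For RNAs that were lower, fewer cells in S phase and less RNA per cell cannot be told apart in bulk RNA.

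The 11 calls depended on the scaling and on which libraries were fitted. Upper quartile scaling ended those of E2f3, Mcm2, Mcm4, Pcna and Rpa1, and library totals those of Mcm2, Mcm4, Pcna and Rpa1. Without control replicate 1 or without control replicate 2 edgeR called 0 of the 56 genes, with 13 and 18 of them at an unadjusted p under 0.05. Without control replicate 3 it called E2f2, Pola1 and Rpa3, without D-serine replicate 3 Pola1 alone, and without D-serine replicate 2 it called 7 of the 11, all but Mcm2, Pcna, Rpa1 and Timeless. Without D-serine replicate 1, the library with the different length dependence, all 11 remained and Rfc1 and Rpa2 were also called lower. In all genes the count went from 1302 to 125, 68, 453, 291, 1566 and 1699 in these fits. The order is control replicates 1, 2 and 3 and D-serine replicates 3, 2 and 1. Without D-serine replicate 2 the 2 counts moved in opposite directions, as calls over all genes rose while those among the 56 fell to 7.

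**Figure D1:**
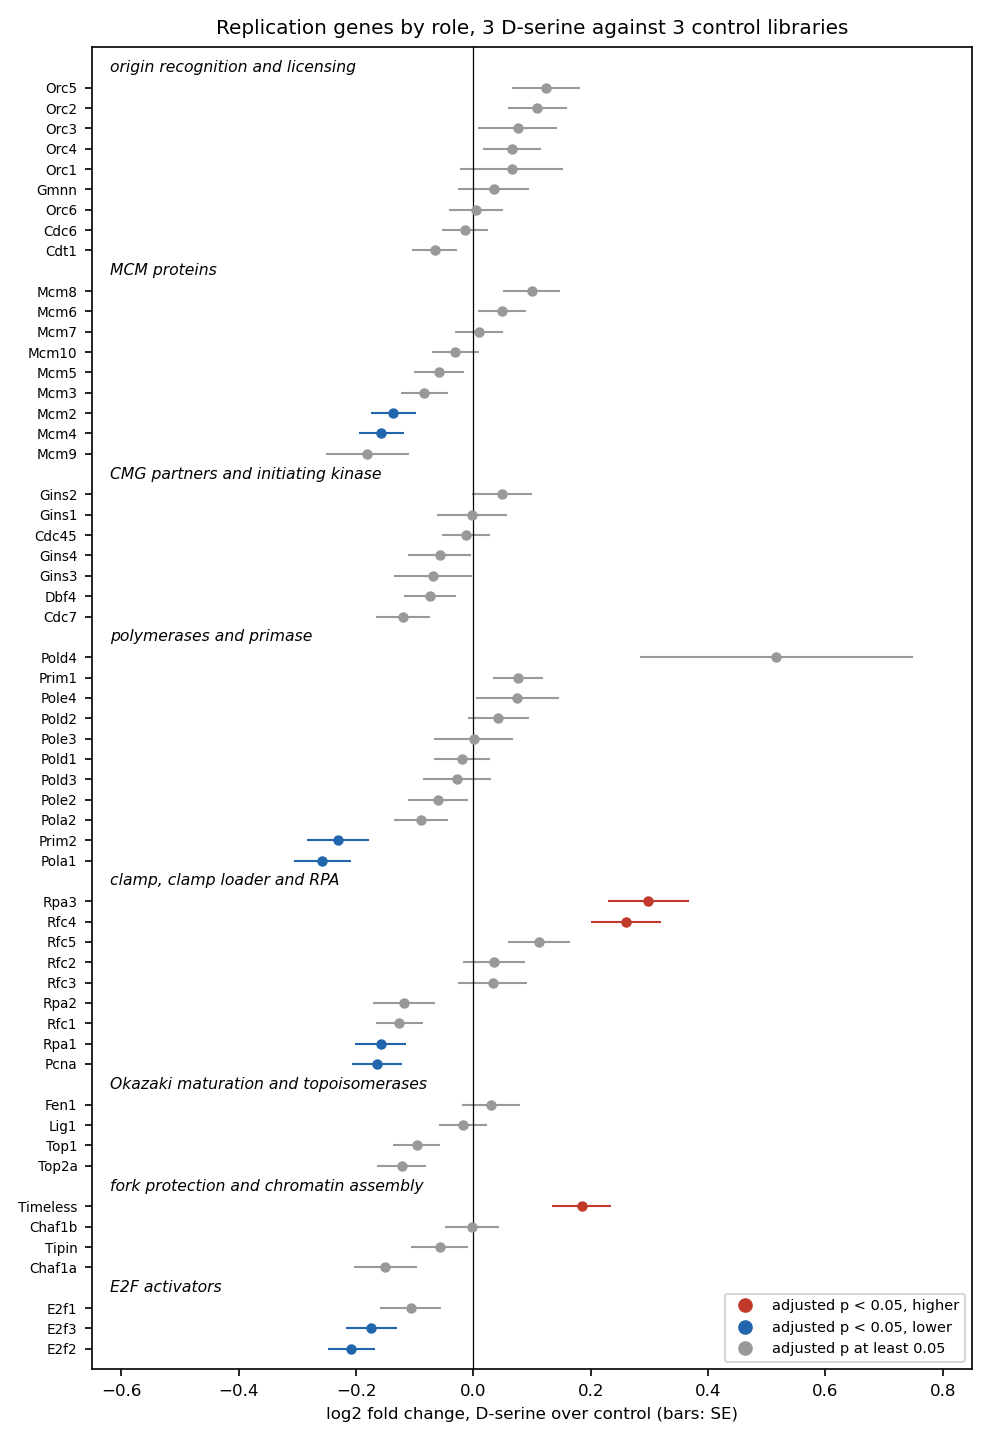
Fitted log2 fold change, D-serine over control, of each of the 56 genes, with bars of 1 SE, grouped by role. The 8 genes called lower (blue) and the 3 called higher (red) lie in 5 of the 8 role groups, while no gene of origin licensing, of the GINS, Cdc45 and Cdc7 group or of the ligase and topoisomerase group passed the threshold. These 3 groups hold 9, 7 and 4 genes, too few to set against the 9.74% of all tested genes called.

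**Figure D2:**
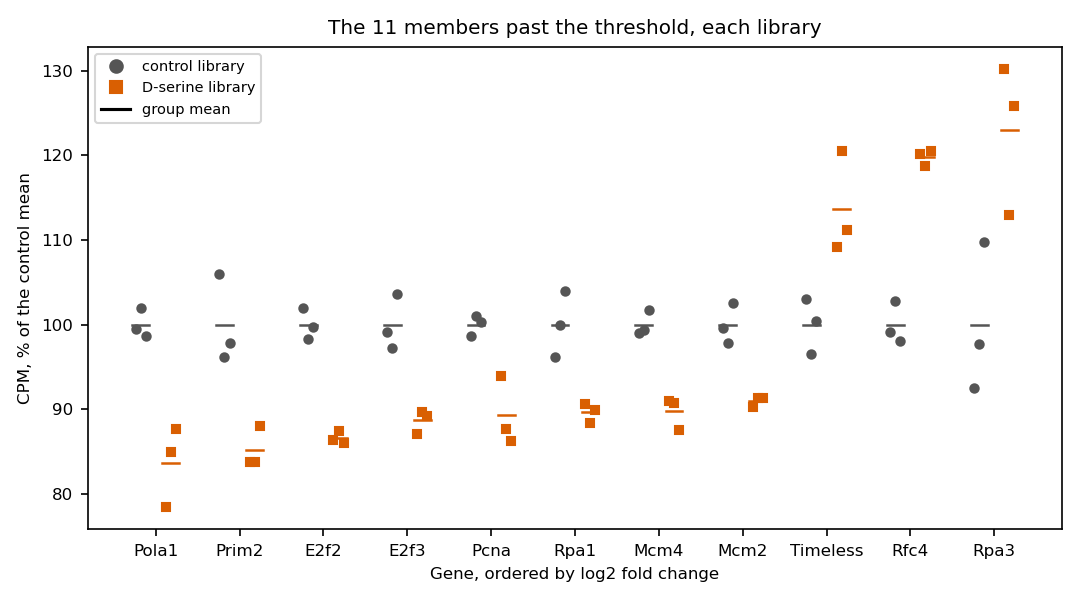
CPM of each library as a percentage of the gene's control mean for the 11 called genes, with group means as lines. In each gene the D-serine squares lie entirely below or entirely above the control circles, and the widest spread among D-serine libraries is that of Rpa3.

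Promoter sequence is a feature that did not enter the choice of the genes. RefSeq promoter windows of 300 bases, from 250 before to 50 after a start, were matched by symbol for 48 of the 56 genes (60 windows, GRCm38.p6). Windows were searched on both strands for 4 forms of the E2F site (TTTCCCGC, TTTCGCGC, TTTGCCGC and TTTGGCGC) and for CCAAT, the box bound by NF-Y. An E2F form stood in 20 of the 60 windows (33.3%), where 2.26% of 32851 windows of that length held one, and CCAAT in 31 (51.7%), where 37.4% did. Matches of the 2 kinds overlapped each other once. An E2F form stood in at least 1 window of 3 of the 6 matched genes called lower, of 0 of the 3 called higher and of 16 of the 39 not called. A match describes the letters in the window and is not evidence of binding.

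The windows of the 6 matched genes with the smallest p are shown because they put genes that fell (E2f2, Pola1, E2f3 and Pcna) beside genes that rose (Rfc4 and Rpa3). Each runs 5′ to 3′ along the gene's strand, with E2F forms and CCAAT, on either strand, in capitals. E2f2 is at chr4:136172024-136172323 (plus strand), Pola1 at chrX:93632106-93632405 (minus), E2f3 at chr13:29986014-29986313 (minus), Pcna at chr2:132253131-132253430 (minus), Rfc4 at chr16:23127681-23127980 (minus) and Rpa3 at chr6:8259092-8259391 (minus). E2f2 and E2f3 have 2 windows each, and the one with an E2F form is shown.
E2f2: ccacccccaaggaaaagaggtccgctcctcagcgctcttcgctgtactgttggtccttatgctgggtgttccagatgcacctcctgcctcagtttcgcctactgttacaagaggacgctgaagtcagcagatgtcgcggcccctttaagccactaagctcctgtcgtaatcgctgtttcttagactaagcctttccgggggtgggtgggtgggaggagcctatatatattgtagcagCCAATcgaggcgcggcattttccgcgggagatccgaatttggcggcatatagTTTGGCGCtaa
Pola1: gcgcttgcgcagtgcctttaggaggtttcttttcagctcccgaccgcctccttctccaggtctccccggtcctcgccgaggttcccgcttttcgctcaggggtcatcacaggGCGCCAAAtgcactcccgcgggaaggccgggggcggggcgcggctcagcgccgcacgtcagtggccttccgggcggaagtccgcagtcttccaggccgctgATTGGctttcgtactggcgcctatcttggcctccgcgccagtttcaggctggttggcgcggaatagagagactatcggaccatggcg
E2f3: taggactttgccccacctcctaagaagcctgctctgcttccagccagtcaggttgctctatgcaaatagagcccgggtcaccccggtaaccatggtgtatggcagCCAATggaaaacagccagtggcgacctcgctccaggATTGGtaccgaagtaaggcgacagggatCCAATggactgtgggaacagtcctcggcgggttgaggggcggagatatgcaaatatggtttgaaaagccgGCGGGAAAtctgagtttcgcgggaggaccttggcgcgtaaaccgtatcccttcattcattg
Pcna: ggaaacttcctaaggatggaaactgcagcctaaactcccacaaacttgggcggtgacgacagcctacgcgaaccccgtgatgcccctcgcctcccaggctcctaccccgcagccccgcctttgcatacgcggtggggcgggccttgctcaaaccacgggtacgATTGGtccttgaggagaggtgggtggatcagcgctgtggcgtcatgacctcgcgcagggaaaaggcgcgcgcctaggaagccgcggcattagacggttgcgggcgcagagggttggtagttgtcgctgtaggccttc
Rfc4: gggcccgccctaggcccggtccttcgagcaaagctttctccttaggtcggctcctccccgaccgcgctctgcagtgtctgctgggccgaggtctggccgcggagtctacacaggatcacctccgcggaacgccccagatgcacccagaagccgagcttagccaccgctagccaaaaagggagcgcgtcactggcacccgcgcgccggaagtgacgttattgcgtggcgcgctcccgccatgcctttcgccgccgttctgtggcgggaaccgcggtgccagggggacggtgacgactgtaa
Rpa3: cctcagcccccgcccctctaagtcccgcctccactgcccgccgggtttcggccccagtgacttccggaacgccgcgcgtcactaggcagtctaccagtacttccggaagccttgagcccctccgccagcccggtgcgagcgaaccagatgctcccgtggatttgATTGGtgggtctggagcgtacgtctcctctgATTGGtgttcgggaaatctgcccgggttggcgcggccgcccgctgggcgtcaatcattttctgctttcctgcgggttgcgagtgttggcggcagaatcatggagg
The windows of E2f2, Pola1 and E2f3 hold 1 E2F form each. Its first base is base 40 from the start in E2f2 and lies 138 bases before the start in Pola1 and 11 before it in E2f3. Pcna and Rpa3 hold CCAAT only, once and 2 times, and the Rfc4 window holds neither.

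Among the 9 genes of origin recognition and licensing, 0 were called by edgeR, 0 were at an unadjusted p under 0.05, and DESeq2 and limma-voom also called 0. With 9.74% of all tested genes called by edgeR, 9 genes are too few to set against this share. Cdt1, which brings the Mcm ring to origins, was the most abundant of them per length, at 226 CPM per kb of exon in control, followed by Orc6 at 127 and Cdc6 at 72.7. Orc3 and Orc1, both subunits of the complex that marks origins, were lowest at 5.23 and 5.74 CPM per kb. The smallest p-values belonged to Orc5 and Orc2, 2 further subunits of that complex. Orc2 had 132, 142 and 125 CPM across control replicates 1 to 3 and 141, 142 and 147 CPM across D-serine replicates 1 to 3 (log2 fold change 0.11 with standard error 0.051, edgeR adjusted p = 0.178), and its groups overlapped. Orc5 had 37.6, 37.2 and 38.5 CPM in control and 43.4, 41.2 and 38.9 CPM with D-serine, without overlap but not past the threshold (log2 fold change 0.12 with standard error 0.058, edgeR adjusted p = 0.182). The other 7 had log2 fold changes between -0.066 (Cdt1) and 0.075 (Orc3), 5 positive and 2 negative, with adjusted p-values of at least 0.277. Gmnn, the inhibitor of Cdt1, was at 46.5 ± 1.58 to 47.7 ± 3.33 CPM (log2 fold change 0.035).

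Of the 9 Mcm genes, 2 subunits of the replicative helicase, Mcm2 and Mcm4, were called lower with D-serine. Over all tested genes 4.90% were called lower, and 9 genes are too few to set against this share. Mcm4 was at 542, 544 and 557 CPM across control replicates 1 to 3 and at 498, 497 and 479 CPM across D-serine replicates 1 to 3, so the groups did not overlap. It fell from 548 ± 7.97 to 492 ± 10.5 CPM (mean ± SD of n = 3 each; log2 fold change -0.16 with standard error 0.039, edgeR adjusted p = 0.0262). Mcm2, the most abundant Mcm gene per length, was at 713, 700.3 and 735 CPM in control and 646, 654 and 654 CPM with D-serine, again without overlap, and fell from 716 ± 17.3 to 651 ± 4.46 CPM (mean ± SD of n = 3 each; log2 fold change -0.14 with standard error 0.038, edgeR adjusted p = 0.04). Under upper quartile scaling or library totals neither was past the threshold, and over all alternatives the highest adjusted p was 0.112 for Mcm4 and 0.139 for Mcm2. Mcm3 and Mcm5, also in the ring, lay lower in every D-serine library than in any control library but were not called (log2 fold changes -0.084 and -0.058, edgeR adjusted p = 0.193 and 0.394). Mcm6 and Mcm7, the remaining ring subunits, had log2 fold changes of 0.049 and 0.0091, and their groups overlapped.

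The members outside the ring were not called either. Mcm9, which acts in recombination repair, was the least abundant Mcm gene, at 27.9, 26.1 and 26.0 CPM in control and 21.6, 24.0 and 24.8 CPM with D-serine (log2 fold change -0.18 with standard error 0.071, edgeR adjusted p = 0.118). Mcm8, its partner, lay the other way at 0.10 (adjusted p = 0.196). Mcm10, needed to start the helicase, had -0.031 and overlapped between the groups.

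The make-up of the ring transcripts can be stated without any scaling between libraries, as each subunit's share of the summed Mcm2 to Mcm7 level per kb. Mcm2 took 22.9%, 22.6% and 22.7% across control replicates 1 to 3 and 21.4%, 21.9% and 22.0% across D-serine replicates 1 to 3. Mcm4 took 16.3 ± 0.16% in control and 15.4 ± 0.26% with D-serine (SD, n = 3 each), whereas Mcm6 took 12.7 ± 0.044% and 13.9 ± 0.25% and Mcm7 13.2 ± 0.30% and 14.0 ± 0.32%. These 4 shares were apart in the 2 groups (two-sided exact permutation test, p = 0.1 each, the lowest possible value, or 0.15 after Benjamini-Hochberg adjustment over 6 shares). Those of Mcm3 and Mcm5 overlapped (exact permutation p = 0.6 each). Shares that sum to 100% show unequal change among subunits and not which of them moved. Exonic lengths were 3371 bases for Mcm2, 3589 for Mcm4, 2901 for Mcm6 and 2396 for Mcm7, so of these 4 the shares of the longer ones were smaller with D-serine than in control and those of the shorter ones larger. Mcm5, at 3441 bases, and Mcm3, at 2886, did not follow this order, as their shares overlapped between the groups. Mcm2 and Mcm4 remained called with the length trend of each library removed.

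**Figure D3:**
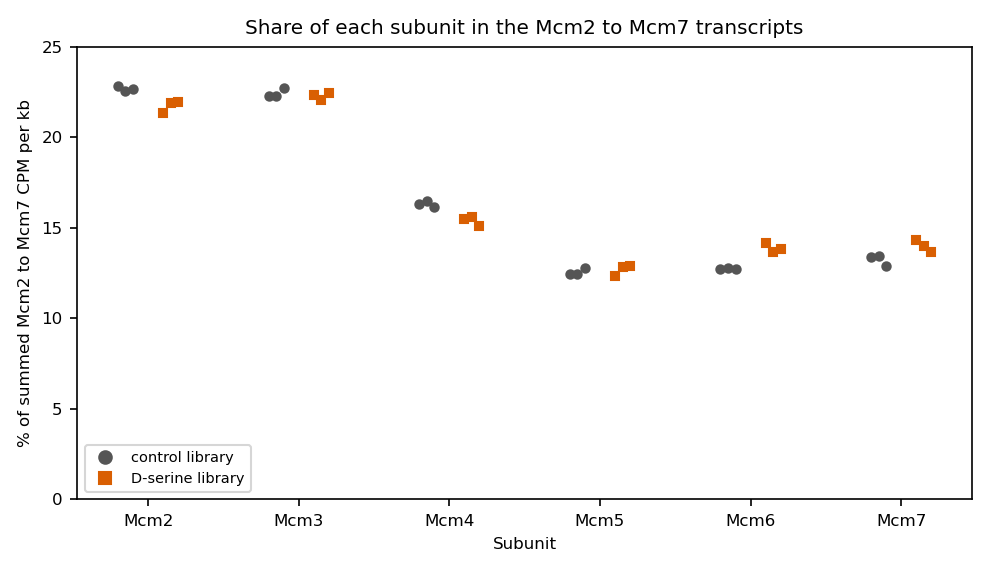
Share of each subunit in the summed Mcm2 to Mcm7 CPM per kb of exon, in percent, for each library. Mcm2 and Mcm4 are lower and Mcm6 and Mcm7 higher in all 3 D-serine libraries than in the control libraries, and Mcm3 and Mcm5 overlap.

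The 7 genes that complete the helicase or switch it on are too few to set against the 9.74% of all tested genes called by edgeR. Of these 7, 0 were called by edgeR, DESeq2 or limma-voom, and 1 was at an unadjusted p under 0.05. That gene was Cdc7, the kinase that phosphorylates the Mcm ring, at 82.3, 79.8 and 77.8 CPM in control and 73.6, 73.6 and 73.6 CPM with D-serine (log2 fold change -0.12 with standard error 0.046, edgeR adjusted p = 0.114). Its D-serine libraries lay below the control libraries and close to each other. Dbf4, the subunit that activates Cdc7, was at 112, 119 and 115 CPM in control and 111, 108 and 109 CPM with D-serine, without overlap (log2 fold change -0.074 with standard error 0.044, edgeR adjusted p = 0.295). Cdc45 and the 4 GINS genes overlapped between the groups, with log2 fold changes from -0.069 (Gins3) to 0.049 (Gins2) and adjusted p-values of at least 0.523. Gins2 shares 118 exonic bases with Gse1 on the opposite strand, which makes its counts uncertain where strand was not used.

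The polymerase and primase genes included the lowest fold change of all 56 genes. Pola1, the catalytic subunit of polymerase alpha, was at 137, 140.1 and 136 CPM across control replicates 1 to 3 and 108, 117 and 121 CPM across D-serine replicates 1 to 3, every D-serine value lying below every control value. It fell from 138 ± 2.34 to 115 ± 6.56 CPM (mean ± SD of n = 3 each; log2 fold change -0.26 with standard error 0.049, edgeR adjusted p = 0.0115). Pola1 kept its call in 14 of 16 alternatives, more than any other called gene, and lost it without control replicate 1 or control replicate 2, with a highest adjusted p of 0.0654. Prim2, the large primase subunit that works in the same complex, was at 80.7, 73.2 and 74.6 CPM in control and 63.8, 63.8 and 67.1 CPM with D-serine. These groups did not overlap, and Prim2 fell from 76.2 ± 3.99 to 64.9 ± 1.90 CPM (mean ± SD of n = 3 each; log2 fold change -0.23 with standard error 0.053, edgeR adjusted p = 0.0203). Its highest adjusted p over the alternatives was 0.0948.

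The partner subunits of that complex were not called. Prim1, the catalytic primase subunit, had a log2 fold change of 0.076 (adjusted p = 0.256) and Pola2, the regulatory subunit of polymerase alpha, -0.089 (adjusted p = 0.229). The ratio of Prim2 to Prim1 counts was 0.460, 0.424 and 0.450 in control and 0.355, 0.356 and 0.367 with D-serine. The ratio of Pola1 to Pola2 counts was 1.55, 1.64 and 1.64 in control and 1.34, 1.45 and 1.51 with D-serine. Both ratios, chosen after values were seen, are free of library scaling and did not overlap between the groups. Prim2 lay lower and Prim1 higher in every D-serine library than in any control library, so the ratio of these genes had to separate. Prim2 and Prim1 are closer in exonic length (1976 and 1533 bases) than Pola1 and Pola2 (5347 and 2872 bases).

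The numbered subunits of polymerases delta and epsilon, Pold1 to Pold4 and Pole2 to Pole4, all overlapped between the groups. Pold1, the catalytic subunit of polymerase delta, was at 154 ± 5.60 to 152 ± 6.96 CPM (log2 fold change -0.019), its accessory subunits Pold2 and Pold3 had 0.043 and -0.028, and the epsilon subunits Pole2, Pole3 and Pole4 had -0.06, 0.00059 and 0.075. Pold4, a small delta subunit, was nearly absent, with 47, 70 and 111 counts in control and 120, 113 and 120 with D-serine (log2 fold change 0.52 with standard error 0.23, edgeR adjusted p = 0.167). Of its exonic bases 64.4% also belong to the read-through gene Clcf1-pold4 on the same strand, so its counts are uncertain. Pole, outside the chosen genes, was at 252, 255 and 247 CPM in control and 180.3, 229 and 229.9 CPM with D-serine and was not past the threshold (log2 fold change -0.24 with standard error 0.074, edgeR adjusted p = 0.0601). Its lowest value was that of D-serine replicate 1.

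Among the 9 genes of the clamp, its loader and replication protein A, 2 were called lower and 2 higher. Over all tested genes 4.90% were called lower and 4.84% higher, and 9 genes are too few to set against these shares. Pcna, the sliding clamp and the most abundant of all 56 genes per length at 476 CPM per kb in control, was at 591, 605 and 601 CPM across control replicates 1 to 3 and 563, 525 and 517 CPM across D-serine replicates 1 to 3. It fell from 599 ± 7.47 to 535 ± 24.6 CPM without overlap (mean ± SD of n = 3 each; log2 fold change -0.16 with standard error 0.043, edgeR adjusted p = 0.0312). Under upper quartile scaling or library totals it was not past the threshold, and its highest adjusted p was 0.141. At 1260 bases Pcna was the shortest of the 8 lower genes.

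Replication protein A, the trimer that coats single-stranded DNA, had subunits called in opposite directions. Rpa1, the large DNA-binding subunit, was at 201, 209 and 218 CPM in control and 189.8, 185 and 188 CPM with D-serine, and fell from 209 ± 8.18 to 188 ± 2.43 CPM (mean ± SD of n = 3 each; log2 fold change -0.16 with standard error 0.043, edgeR adjusted p = 0.039). Rpa3, the smallest subunit, was at 62.0, 65.5 and 73.5 CPM in control and 87.2, 75.7 and 84.3 CPM with D-serine, and rose from 67.0 ± 5.93 to 82.4 ± 6.02 CPM (mean ± SD of n = 3 each; log2 fold change 0.30 with standard error 0.069, edgeR adjusted p = 0.0213). Neither gene overlapped between the groups, although D-serine replicate 2 of Rpa3 came close to control replicate 3. Rpa2, the middle subunit, was at 220.4, 229 and 240.4 CPM in control and 228, 203 and 205 CPM with D-serine, with only D-serine replicate 1 inside the control range, and was not called (log2 fold change -0.12 with standard error 0.052, edgeR adjusted p = 0.159).

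The ratio of Rpa3 to Rpa1 counts, chosen after values were seen, was 0.308, 0.313 and 0.338 in control and 0.460, 0.409 and 0.448 with D-serine. No control ratio reached a D-serine ratio. With Rpa3 higher and Rpa1 lower without overlap, this separation followed from the choice of genes. The ratio is 1 of 10 computed between members, most of them pairing a called gene with a partner that was not called. Those of Rpa2 to Rpa1 and of E2f2 to E2f1 overlapped between the groups. Rpa3 spans 638 exonic bases and Rpa1 3106, and both kept their calls with the length trend of each library removed. Upper quartile scaling or library totals ended the call of Rpa1, and the highest adjusted p was 0.14 for Rpa1 and 0.0971 for Rpa3.

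Replication factor C, the pentamer that opens and closes the clamp, showed 1 call. Rfc4, one of its small subunits, was at 24.7, 25.6 and 24.4 CPM in control and 29.9, 29.5 and 30.0 CPM with D-serine, with narrow spread within groups and no overlap. It rose from 24.9 ± 0.624 to 29.8 ± 0.238 CPM (mean ± SD of n = 3 each; log2 fold change 0.26 with standard error 0.06, edgeR adjusted p = 0.0206), with a highest adjusted p of 0.0783 over the alternatives. Rfc4 shares 160 of its 1216 exonic bases with Eif4a2 on the opposite strand, which makes its counts uncertain. Rfc1, the large subunit, was not called (log2 fold change -0.13 with standard error 0.041, edgeR adjusted p = 0.0667), although its D-serine libraries lay below all control libraries and it was called by DESeq2 and without D-serine replicate 1. Rfc2, Rfc3 and Rfc5, further small subunits, had log2 fold changes of 0.036, 0.033 and 0.11 and were not called.

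Of the lagging strand and topoisomerase genes, 0 of 4 were called by edgeR, DESeq2 or limma-voom, and 2 were at an unadjusted p under 0.05. These 4 genes are too few to set against the 9.74% of all tested genes called by edgeR. Top2a, which untangles sister DNA and peaks in G2 and mitosis, was the most abundant of the 56 genes by CPM, at 1203, 1169 and 1133 CPM in control and 1022, 1092 and 1105 CPM with D-serine (log2 fold change -0.12 with standard error 0.042, edgeR adjusted p = 0.0798). Top1, which relaxes DNA ahead of forks, was at 210.0, 206 and 208 CPM in control and 192, 199 and 193 CPM with D-serine (log2 fold change -0.096 with standard error 0.04, edgeR adjusted p = 0.139). In both genes the D-serine libraries lay below the control libraries. Top2a passed the threshold when no filter on low counts was applied (adjusted p = 0.0467). Fen1, the flap nuclease, and Lig1, the ligase that seals Okazaki fragments, had log2 fold changes of 0.03 and -0.017 and overlapped between groups.

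Timeless, which with Tipin travels with the fork and protects it, was the third gene that rose. Its values were 113, 106 and 111 CPM in control and 120.2, 133 and 122 CPM with D-serine, with D-serine replicate 2 highest and no overlap. It rose from 110.1 ± 3.61 to 125 ± 6.70 CPM (mean ± SD of n = 3 each; log2 fold change 0.18 with standard error 0.05, edgeR adjusted p = 0.0369), with a highest adjusted p of 0.157. At 4515 exonic bases it was the longest of the 3 higher genes, and it remained called with the length trend removed. Tipin, its binding partner, had a log2 fold change of -0.057 (adjusted p = 0.472). The ratio of Timeless to Tipin counts, chosen after values were seen, was 1.08, 0.987 and 1.06 in control and 1.19, 1.37 and 1.14 with D-serine. Chaf1a and Chaf1b belong to chromatin assembly factor 1, which deposits histones behind the fork. Chaf1a was at 86.5, 80.1 and 84.8 CPM in control and 71.1, 76.3 and 79.1 CPM with D-serine, without overlap but not called (log2 fold change -0.15 with standard error 0.054, edgeR adjusted p = 0.0911). Chaf1b had a log2 fold change of -0.0029.

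All 3 activator E2F genes lay lower in every D-serine library than in any control library, and 2 of them were called. Of all tested genes 16.6% lay lower without overlap and 4.90% were called lower, and 3 genes are too few to set against these shares. E2f2 had the smallest p of the 56 genes, at 326, 315 and 319 CPM across control replicates 1 to 3 and 276, 279.8 and 275 CPM across D-serine replicates 1 to 3. It fell from 320.0 ± 5.97 to 277 ± 2.50 CPM (mean ± SD of n = 3 each; log2 fold change -0.21 with standard error 0.039, edgeR adjusted p = 0.0115), with a highest adjusted p of 0.0631 over the alternatives. E2f3 was at 132, 130.0 and 139 CPM in control and 116, 119.9 and 119 CPM with D-serine, and fell from 134 ± 4.42 to 119 ± 1.87 CPM (mean ± SD of n = 3 each; log2 fold change -0.17 with standard error 0.044, edgeR adjusted p = 0.0286). Upper quartile scaling ended its call, and its highest adjusted p was 0.105. E2f1 was at 75.9, 74.8 and 83.2 CPM in control and 73.1, 72.2 and 71.9 CPM with D-serine and was not called (log2 fold change -0.11 with standard error 0.052, edgeR adjusted p = 0.197). Per length E2f2 was the most abundant activator in control, at 64.0 CPM per kb, against 25.2 for E2f1 and 24.9 for E2f3. The E2f1 window held no E2F form of the 4 searched.

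Transcript length moved with these results. The 8 lower genes had a median exonic length of 3480 bases, the 3 higher genes 1216 bases and the 45 others 2412 bases, where all tested genes had 2834.5 bases. Across the 56 genes the log2 fold change had a Spearman's rho of -0.39 with length, and across all tested genes -0.29, given as a description, since genes of the same libraries do not replicate each other. Leaving out D-serine replicate 1 gave -0.26 across the 56 genes. The length slopes of the libraries were apart in the 2 groups (two-sided exact permutation test, p = 0.1, the lowest possible value). With each library's length trend removed all 11 genes remained called and Cdt1, Chaf1a, Rpa2 and Tipin were also called lower, 12 lower and 3 higher in all, while the median of the 56 genes moved to -0.048. Calls over all genes rose too, to 2043 (15.3%). The 12 lower genes were 21.4% of the 56, where 7.63% of all tested genes were called lower. With replicate number added to that fit, E2f3 and Rfc4 were not called, and 9 genes were lower and 2 higher.

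**Figure D4:**
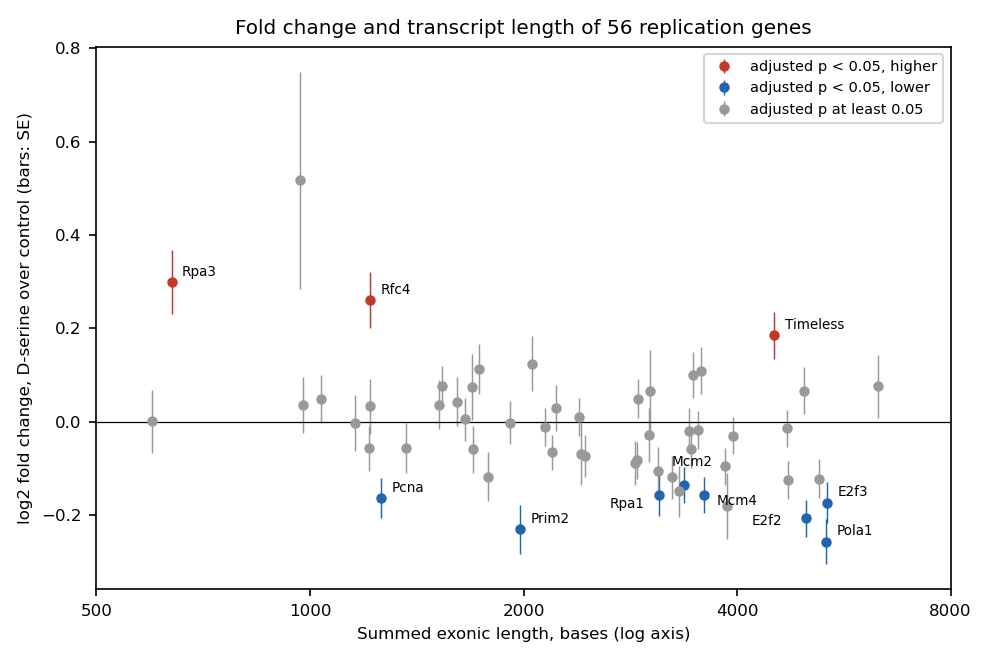
Log2 fold change, D-serine over control, with bars of 1 SE, against summed exonic length on a log axis for the 56 genes. The longest called genes, E2f2, Pola1 and E2f3, lie below 0 and Timeless above it, and the short genes Rpa3 and Rfc4 lie above 0 while Pcna, at 1260 bases, lies below.

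Other genes of the pathway were taken from lists written from general knowledge, with earlier results of these data known. The shares in the lists of further replication factors, E2F network genes and mitotic genes are therefore given as a description. Of 37 further replication factors, all tested, 6 were called lower (16.2%, against 4.90% of all tested genes) and 1 higher (2.70%, against 4.84%), with a median log2 fold change of -0.041. Mtbp, a partner in origin firing (134 ± 1.96 to 119 ± 1.37 CPM; log2 fold change -0.16 with standard error 0.041, edgeR adjusted p = 0.03), Ticrr, the firing factor that works with it (96.1 ± 5.36 to 78.9 ± 9.29 CPM; log2 fold change -0.28 with standard error 0.074, edgeR adjusted p = 0.0316), and Topbp1, a scaffold of the same step (266 ± 5.86 to 235 ± 14.2 CPM; log2 fold change -0.18 with standard error 0.049, edgeR adjusted p = 0.0367), fell. Chtf18, part of an alternative clamp loader, rose from a low level (4.89 ± 0.184 to 6.96 ± 0.952 CPM; log2 fold change 0.51 with standard error 0.13, edgeR adjusted p = 0.0289). Ticrr shares 48 exonic bases with Kif7 and Chtf18 73 with Gng13, both on the opposite strand. Without control replicate 1, 2 or 3 or D-serine replicate 3, edgeR called 0 of the 37, with 10, 14, 14 and 11 of them at an unadjusted p under 0.05. Under upper quartile scaling or library totals 1 was called lower (2.70%, against 3.08% of all tested genes) and 1 higher.

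Of 42 genes of the E2F network and G1/S targets, 6 were called lower (14.3%, against 4.90% of all tested genes) and 0 higher (against 4.84%) by edgeR, with 0 higher at an unadjusted p under 0.05 and 0 higher by DESeq2 or limma-voom, and the median log2 fold change was -0.066. E2f7 and E2f8, repressors that are themselves E2F targets, fell (240.0 ± 20.2 to 191 ± 12.5 CPM; log2 fold change -0.33 with standard error 0.063, edgeR adjusted p = 0.0119) and (136 ± 3.23 to 116 ± 4.54 CPM; log2 fold change -0.22 with standard error 0.046, edgeR adjusted p = 0.0142). Ccne2, a cyclin of S phase entry (log2 fold change -0.18 with standard error 0.044, edgeR adjusted p = 0.0253), and its kinase partner Cdk2 (log2 fold change -0.17 with standard error 0.043, edgeR adjusted p = 0.0266) also fell. Ccne2 shares 1734 exonic bases with Ints8 on the opposite strand, which makes its counts uncertain. Under upper quartile scaling 4 of the 42 were called lower and with library totals 3, where 3.08% of all tested genes were called lower in each. Without control replicate 1 or 2 edgeR called 0 of the 42, with 12 and 11 at an unadjusted p under 0.05, and without control replicate 3 or D-serine replicate 3 it called 2, while without D-serine replicate 1 it called 10. In that last fit 12.5% of all tested genes were called.

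Of 39 tested mitotic genes, 1 was called higher (2.56%, against 4.84% of all tested genes) and 0 lower (against 4.90%) by edgeR. DESeq2 called 2 lower, where it called 6.46% of all tested genes lower, and limma-voom 0, against 4.99%. At an unadjusted p under 0.05 by edgeR, 12 were lower and 1 was higher. Of all 13366 tested genes, 3769 were at that p in both directions together. That count was not split by direction, so it is not a like share for the 12 lower genes. The called gene was Ccnb2, a mitotic cyclin, which rose (18.6 ± 0.804 to 23.7 ± 1.43 CPM; log2 fold change 0.36 with standard error 0.073, edgeR adjusted p = 0.0142). The median of the 39 genes was -0.048. Mki67, the proliferation marker, was at 1744, 1586 and 1421 CPM in control and 1113, 1496 and 1402 CPM with D-serine, overlapped, and was not called (log2 fold change -0.24 with standard error 0.091, edgeR adjusted p = 0.103). Without D-serine replicate 1, 5 mitotic genes were called lower and 1 higher, where 6.76% of all tested genes were called lower. Without control replicate 1, 2 or 3 edgeR called 0 of the 39, with 6, 8 and 12 at an unadjusted p under 0.05.

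**Figure D5:**
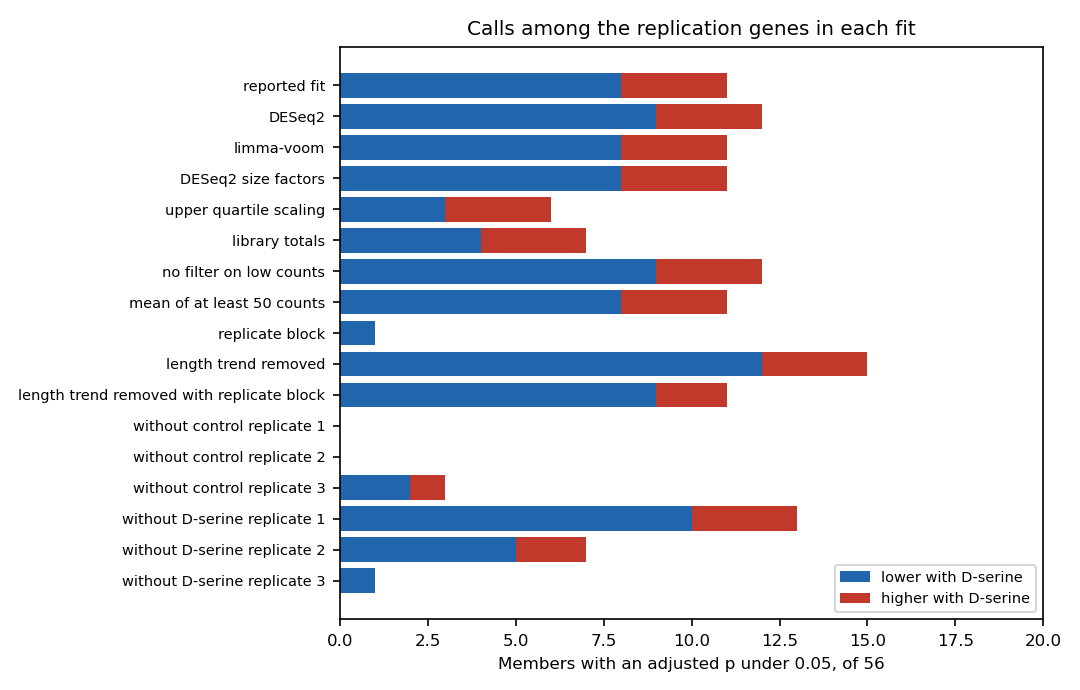
Number of the 56 genes with an adjusted p under 0.05 in the reported fit and in each of 16 alternatives, split by direction. The reported 8 lower and 3 higher genes become 12 and 3 with the length trend removed and 0 without control replicate 1 or control replicate 2. In the same fits the calls over all tested genes go from 1302 to 2043, and to 125 and 68.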

How the data were processed

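Poly(A) RNA of 6 Neuro2a libraries was sequenced as paired ends from a stranded TruSeq kit, per the labels' protocols. The authors deposited raw counts per gene with each gene's summed exonic length. HISAT2 and featureCounts are named in the submitters' processing notes, together with Trim Galore and DESeq2, without roles. Their strand setting is not given in the sources used here. Those notes name GRCm38, but only 314 of 23172 matched genes had the same start in the RefSeq GRCm38.p6 table, so the deposited coordinates are not printed.

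Counts were tested with edgeR 4.0.16 in R 4.3.3 over all 13366 genes kept by filterByExpr, with TMM scaling, no covariate, two-sided Benjamini-Hochberg adjustment and a threshold of 0.05. The SE was obtained from the log2 fold change and the F statistic. The procedure was tested on simulated data. Alternatives used DESeq2 1.42.0, limma-voom (limma 3.58.1), other scalings and filters, a replicate block, removal of length trends (natural spline, 5 degrees of freedom) and omission of each library.

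Members and lists were chosen with earlier results of these data known. Within each role, called genes and the 2 with the smallest p are given in full, and in each other list up to 4 called genes by p. Promoter windows are those of called genes with a match. Exceptions, such as Pole, Mki67, Rpa2 and the ratios, were chosen after values were seen.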

Additional observations from a re-analysis of the deposited data

How the results depend on the processing

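The median log2 fold change of the 56 genes was 0.011 under upper quartile scaling and 0.011 with library totals, and -0.048 both with the length trend removed and with that removal plus the replicate block. Upper quartile scaling left 3 members lower and 2 of the other replication factors called, and library totals left 4 members lower, 2 other factors and 3 E2F network genes. Over all genes upper quartile scaling gave 914 higher and 412 lower calls, against 647 and 655. With the length trend removed 2043 genes, 12 other factors, 10 E2F network genes and 6 mitotic genes were called, and with the replicate block added 10 and 6 of the last 2. Mitotic calls were 3 with DESeq2, 2 with its size factors and 4 with no filter. Same-numbered libraries of the 2 groups did not deviate together (correlations -0.069, 0.020 and -0.019), so the numbers were not taken as pairs, and not every library correlated best with its own number. The replicate block called 298 genes, 1 member lower (Pola1) and 0 higher, 0 other factors and 0 E2F network genes, where 13, 4, 11 and 12 were at an unadjusted p under 0.05. Leaving out 1 library gave 68 to 1699 genes, 0 to 10 members lower, 0 to 3 higher, 0 to 9 other factors, 0 to 10 E2F network genes, 0 to 6 mitotic genes and medians of -0.034 to -0.017. No named gene changed direction in any of the 16 alternatives. Over the 18 named genes and these alternatives 65 values lost the threshold and 3 newly passed it. The cause was not tested. Depth limited Pold4, which had 47 to 120 counts.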
